A study of Mus musculus with 12 samples.

Results

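Reads of X-linked genes in MidK2 cells at day 36 were compared, allele by allele, with those in MidK1 cells at day 35. Both were mouse embryonic fibroblasts (MEF) carried through reprogramming with the Sendai virus vector SeVdp(fKOSMaB) in the presence of 30 nM Shield1. Members were single-base variants with at least 20 covering reads, at least 5 variant reads and a variant share of at least 10% in both tables. There were 1899 such sites, out of 3529 sites that passed the same limits in MidK2 day 36 and 2196 in MidK1 day 35, and 1834 of them carried a gene name. They fell into 257 genes as named in the tables. The measure was the reference share, the percentage of reads over a gene's shared sites that did not carry the variant base.

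The series measured poly(A) RNA in 12 libraries, of which these 2 are compared here. The others were MidK2 at days 18, 22 and 29 and MidK1 at days 52 and 56, all with 30 nM Shield1, LowK at days 35, 52 and 56 with the vector and no Shield1, and the fibroblast libraries MEF2 and MEF1, which had neither vector nor Shield1. Each course and day is 1 library, so every p-value below compares single libraries (2 per pair, 4 in the comparison with fibroblasts), covers at most counting error and does not measure the spread between cultures. A read over several sites of a gene was counted at each, so p-values of genes with close sites are too small and their intervals too narrow. The sources used here do not name the strains of mice, which parent gave each X chromosome, whether the courses are 1 cell line or many, what separates MidK2 from MidK1 beyond day and name, or whether either started from MEF2 or MEF1.

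Female mammalian cells silence 1 X chromosome, which stays silent through cell division in fibroblasts, and the silent copy is read again when cells are reprogrammed to pluripotency. Some genes, called escape genes, are read from both copies even while the chromosome is silent. Shield1 is a small molecule that protects proteins carrying a destabilising domain from degradation. A reference share near 0 means that nearly all reads at listed sites carried the variant base, and a share near the middle of the scale means that both bases were read. In bulk RNA such a middle value cannot tell cells that read both copies from a mixture of cells that each read 1 copy.

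Shared sites were covered by 199959 reads in MidK2 day 36 and 129839 reads in MidK1 day 35, with medians of 61 and 39 reads per site. Of the sites, 773 lay in coding sequence, 1004 in untranslated regions (UTRs), 25 in noncoding exons and 24 in introns or flanks. A gene had a median of 5 sites, and 39 genes had 1. Fibroblast markers on the X chromosome took 26.3 of every 1000 covering reads in MidK2 day 36 and 30.4 in MidK1 day 35, against 433 in MEF2 and 474 in MEF1. Of the 11 fibroblast markers 7 were listed in each reprogrammed library, and Srpx, Srpx2, Col4a5 and Col4a6 were in neither. X-linked genes of pluripotent or germline cells took 19.3 per 1000 reads in MidK2 day 36 with 4 of 6 listed, 12.8 in MidK1 day 35 with 3 listed, 5.17 in MEF2 and 4.06 in MEF1 with 1 listed each. Nr0b1 and Tex11 were listed in none of these libraries, and Dusp9 was not listed in MidK1 day 35. Tfe3 was the member listed in MEF2 and MEF1. At shared sites Tfe3 had 3619 reads in MidK2 day 36 and 1681 in MidK1 day 35, and Rhox5 had 705 and 98. The MEF2 and MEF1 values were thus reads of Tfe3 alone, and most of the list's reads in both reprogrammed libraries were Tfe3 reads. The list's values therefore mainly follow 1 gene that was also read in fibroblasts. The tables hold X-linked variants alone, so no autosomal marker was read.

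Most genes had similar reference shares in both Shield1 courses, and 7 of 257 genes (2.72%) differed by at least 20 percentage points with an adjusted p under 0.05 (two-sided Fisher's exact test, Benjamini-Hochberg adjustment over the 257 genes). Med14, Phf8 and Bgn were higher in MidK2 day 36 (3 genes, 1.17%). Wdr13, Kdm6a, Tceal3 and the sites named for both Pdzd4 and Gm14817 were lower (4 genes, 1.56%). In 189 genes the difference was under 5 points and in 225 under 10 points. Many genes lay near the floor, since 159 had a mean share up to 5%, which left little room for a difference. Among 15 genes with mean shares of 40 to 60% the median difference was -7.30 points, and among 5 genes above 60% it was -11.4 points.

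**Figure D1:**
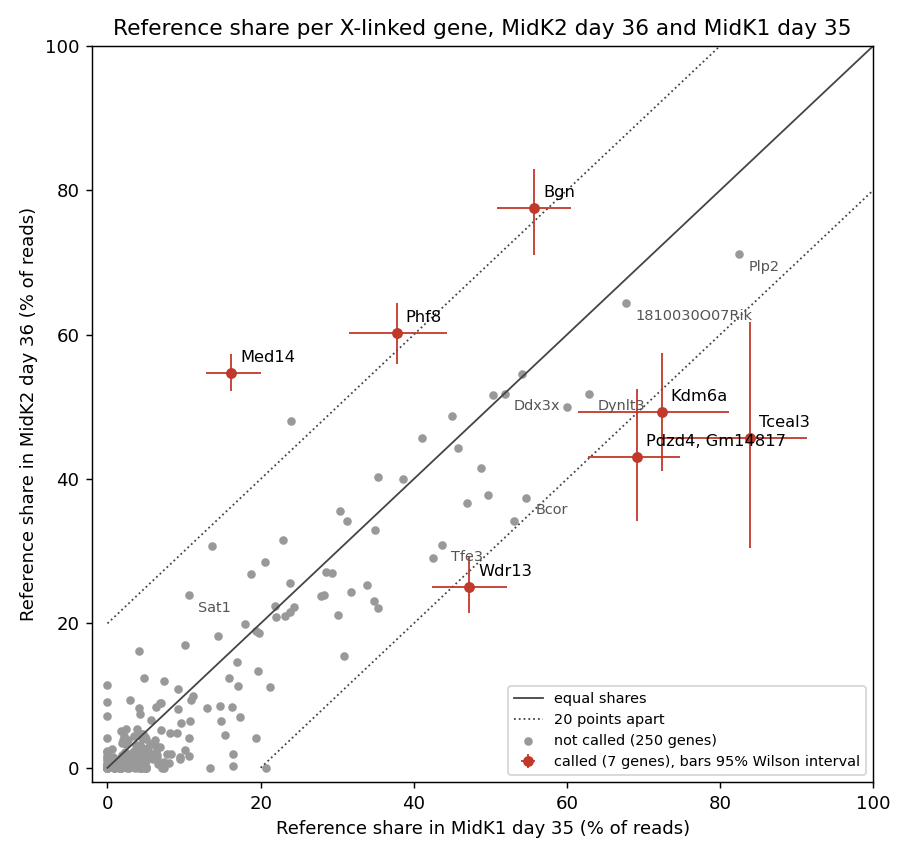
Reference share of each of 257 X-linked genes in MidK2 day 36 (vertical axis, % of reads) and in MidK1 day 35 (horizontal axis, % of reads). Red points are the 7 called genes with 95% Wilson intervals, grey points the other 250 genes, and dotted lines lie 20 points from equality. Med14 lies farthest above the diagonal at 54.8% in MidK2 and 16.1% in MidK1, and most genes sit near the origin.

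The variant with the highest smaller coverage in each of 5 called genes, in Bcor, and a cluster of 5 variants in Phf8 are printed here because the allele shares are read at these bases. Each run is the reference sequence of mm10 on the + strand, 29 bases copied from GENCODE M21 transcripts, with the variant base or bases in capitals. Positions count from 1 at the 5′ end of the run, and in each change the reference base comes first.
Med14: tcctttttaaaactGaaggctgaattcag
Bgn: agaatcctgtccatTttgtccaggaaagg
Phf8: tgttgTtgCtgttgTtgCtgttgTtgttg
Wdr13: atcaccaatcatccTgaaaccagactcat
Kdm6a: agaccactcagacaGtgaatctacatcat
Tceal3: tgatgagagagtgcGcagatatgactagg
Bcor: tcgctataggtatcCtcttcctcatctgg
The Med14 run (chrX:12677484-12677512) held G15T, with 55.8% reference reads in MidK2 day 36 and 8.51% in MidK1 day 35. The Bgn run (chrX:73495662-73495690) held T15A, with 73.0% in MidK2 and 46.0% in MidK1. The Phf8 run (chrX:151633407-151633435) is a stretch of repeated tgt and tgc triplets with T6G, C9T, T15C, C18T and T24C. The Wdr13 run (chrX:8123472-8123500) held T15C at 29.8% in MidK2 and 48.9% in MidK1. The Kdm6a run (chrX:18263977-18264005) held G15A at 57.7% in MidK2 and 73.3% in MidK1. The Tceal3 run (chrX:136667949-136667977) held G15A, the only shared site of that gene. The Bcor run (chrX:12038984-12039012) held C15G at 40.7% in MidK2 and 52.8% in MidK1.

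Med14 encodes the scaffold subunit of Mediator, the complex that links transcription factors to RNA polymerase II (X:12675369-12762073, - strand, mm10). Its reference share was 54.8% (95% Wilson interval 52.2 to 57.3) of 1463 reads in MidK2 day 36 and 16.1% (12.8 to 20.1) of 391 reads in MidK1 day 35. The difference was 38.6 points, with a higher value in MidK2 at 13 of 13 sites (exact Fisher test, Benjamini-Hochberg adjusted p = 4.52e-43). Of the sites, 5 were coding and 8 lay in a UTR. At 11 sites the shares ran from 36.1 to 55.8% in MidK2 and from 0 to 12% in MidK1. The other 2 were high in both libraries, at 75.3% and 86.1% in MidK2 and at 75% and 65.5% in MidK1. Summed over the 11 sites alone, Med14 stood at 45.9% (42.9 to 48.8) in MidK2 and 6.06% (3.96 to 9.18) in MidK1, 39.8 points apart.

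The reads of Med14 divided unevenly by allele. Reference reads made up 4.01 of every 1000 shared-site reads in MidK2 day 36 and 0.485 in MidK1 day 35, whereas variant reads made up 3.31 and 2.53 per 1000. Libraries on other days showed the same split between the courses at the 11 sites. Of these, 10 or 11 were listed on each MidK2 day, at 28.4%, 34.1%, 44.4% and 45.9% on days 18, 22, 29 and 36. In MidK1 5 of them stood at 3.65% (1.57 to 8.26) on day 52 and 10 at 8.16% (5.55 to 11.9) on day 56. LowK without Shield1 had 1.24%, 17.9% and 12.4% at 6, 8 and 11 of the sites on days 35, 52 and 56. All 4 MidK2 libraries therefore lay above all 3 MidK1 and all 3 LowK libraries.

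No Med14 site reached 20 reads in fibroblasts. At 10 to 14 reads per site, 5 of the shared sites in MEF2 had 0 to 7.14% reference reads and 3 in MEF1 had 0 to 20%. Of the 4 nearest measured genes around Med14, Atp6ap2 was also higher in MidK2, by less, and 3 had no adjusted p under 0.05. Ddx3x, an RNA helicase gene and an escape gene, stood at 51.8% in MidK2 day 36 and 51.9% in MidK1 day 35. Usp9x, a deubiquitinase gene, stood at 19.9% and 17.9%, and 1810030O07Rik at 64.3% and 67.8%. Atp6ap2, a proton pump accessory gene, had 17.0% in MidK2 and 10.1% in MidK1 (exact Fisher test, Benjamini-Hochberg adjusted p = 0.000727).

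**Figure D2:**
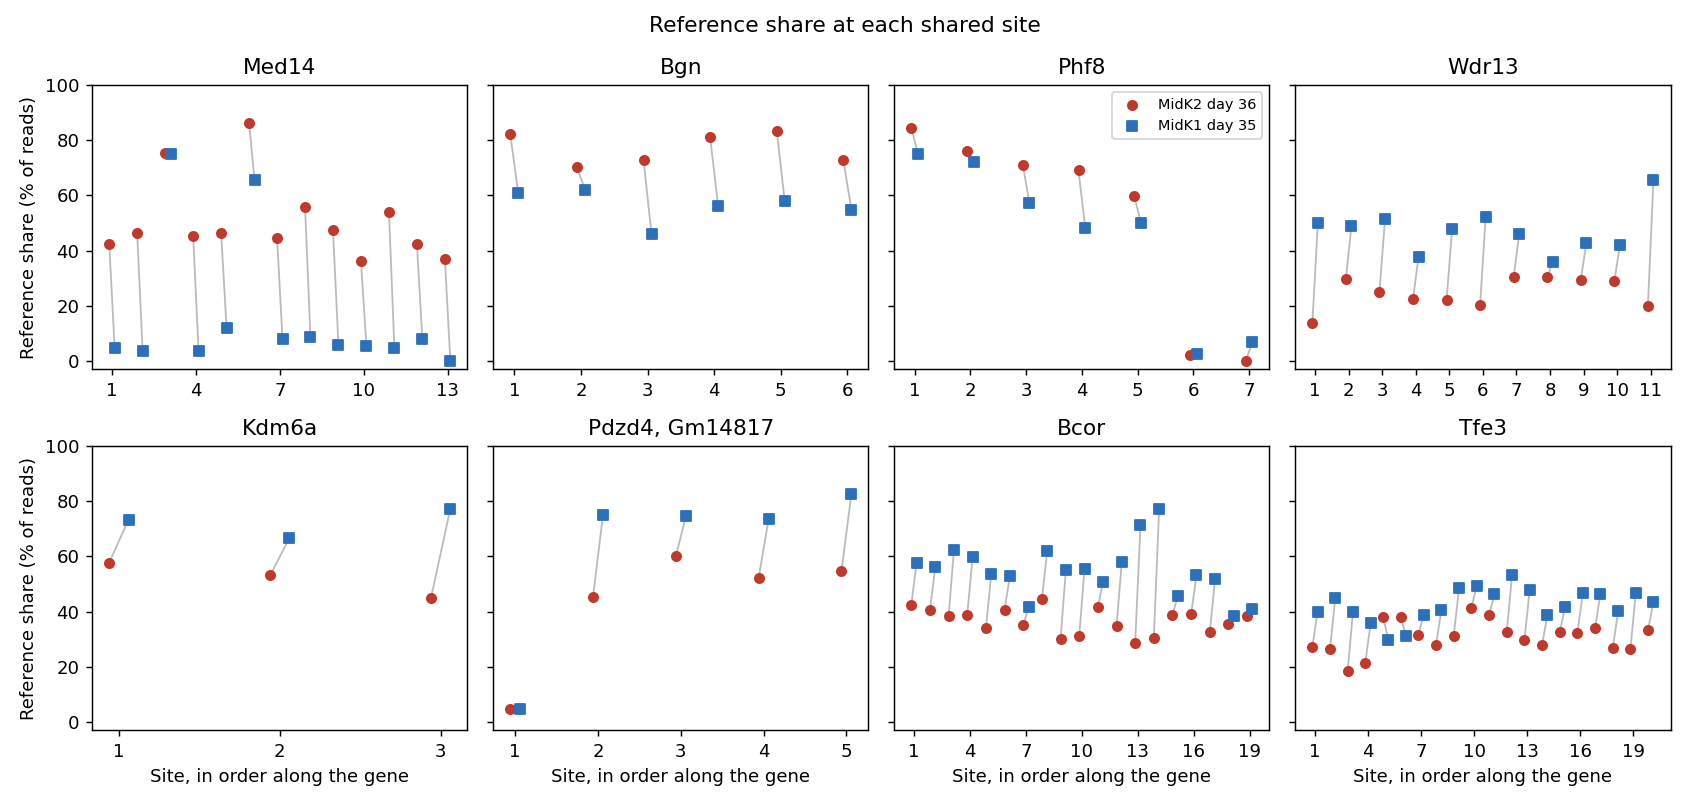
Reference share (% of reads) at each shared site of 8 genes, in order along the gene, with MidK2 day 36 as circles and MidK1 day 35 as squares joined by a line. All 13 Med14 sites are higher in MidK2, all 11 Wdr13 sites and all 19 Bcor sites are lower, and 2 Phf8 sites and 1 Pdzd4 and Gm14817 site lie under 10% in both libraries.

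Bgn encodes biglycan, a proteoglycan of the extracellular matrix that fibroblasts secrete (X:73483602-73495933, + strand). Its reference share was 77.5% (71.0 to 82.9) of 187 reads in MidK2 day 36 and 55.8% (50.9 to 60.5) of 400 reads in MidK1 day 35, and all 6 sites, which lie in a UTR, were higher in MidK2 (difference 21.8 points, exact Fisher test, Benjamini-Hochberg adjusted p = 3.08e-06). Site values ran from 70.4 to 83.3% in MidK2 and from 46.0 to 62.1% in MidK1. The sites lie within 741 bases of 1 gene picked for its difference, so they are not replicates. In fibroblasts the gene was read almost only with variant bases, at 1.22% of 20730 reads in MEF2 and 3.66% of 16156 reads in MEF1.

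The coverage of Bgn was lower in MidK2 day 36, where its share was higher. Its sites took 0.935 of every 1000 shared-site reads in MidK2 day 36 and 3.08 in MidK1 day 35. Variant reads were 0.210 per 1000 in MidK2 and 1.36 in MidK1, and reference reads 0.725 and 1.72. Fibroblast markers as a whole differed less, at 26.3 and 30.4 per 1000 reads, and their part in the Bgn difference was not tested. Fewer cells of a type and less RNA per cell cannot be told apart in these bulk samples. On other days Bgn stood at 70.4%, 89.4% and 89.5% in MidK2 at days 18, 22 and 29 (2 sites at day 29), at 70.7% and 82.4% in MidK1 at days 52 and 56, and at 76.3% in LowK at day 35. Against MidK1 day 52 in place of day 35, the difference was 6.82 points and was not called (exact Fisher test, Benjamini-Hochberg adjusted p = 0.295).

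Phf8, a histone demethylase gene (X:151520672-151633859, + strand), had 60.2% (56.0 to 64.4) of 518 reads in MidK2 day 36 and 37.8% (31.6 to 44.4) of 217 reads in MidK1 day 35. The 22.4-point difference (exact Fisher test, Benjamini-Hochberg adjusted p = 4.56e-07) joins sites of unlike kind, all in the UTR. The 5 variants of the printed repeat, within 19 bases, had 72.3% (67.9 to 76.3) of 430 reads in MidK2 and 59.1% (50.6 to 67.1) of 132 reads in MidK1, and each was higher in MidK2. A read of 76 bases can cover all 5, so these counts hold the same reads more than once and the intervals are too narrow. The other 2 sites had 1.14% of 88 reads in MidK2 and 4.71% of 85 reads in MidK1. With equal weight per site the difference was 7.28 points, at the 1 site read most deeply it was -0.356 points, and over the 2 sites that were variant in fibroblasts it was -3.57 points. In fibroblasts the repeat variants already had 63.0% (54.9 to 70.4) reference reads in MEF2, and MidK2 ran at 60.1%, 65.5% and 55.0% on days 18, 22 and 29. Over the whole gene the call was lost with either neighbouring library, at 13.1 points against MidK1 day 52 and at 4.14 points with MidK2 day 29 in place of day 36 (exact Fisher test, Benjamini-Hochberg adjusted p = 0.0453 and 0.539).

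Wdr13, which encodes a WD-repeat protein (X:8123301-8132892, - strand), was lower in MidK2. Its reference share was 25.1% (21.4 to 29.2) of 470 reads in MidK2 day 36 and 47.2% (42.3 to 52.1) of 394 reads in MidK1 day 35 (difference -22.1 points, exact Fisher test, Benjamini-Hochberg adjusted p = 3.01e-10). The 11 sites, within 1247 bases and so not replicates, ran from 13.6 to 30.3% in MidK2 and from 36.0 to 65.4% in MidK1. Variant reads were similar, at 1.76 and 1.60 per 1000 reads, and reference reads were 0.590 in MidK2 and 1.43 in MidK1. MidK2 had 1.45%, 10.3% and 30.5% at days 18, 22 and 29, MidK1 had 47.1% and 49.9% at days 52 and 56, and LowK had 2.48%, 10.6% and 22.3% at days 35, 52 and 56. The value of MidK2 day 18 rests on 3 of the 11 sites and 69 reads, and those of LowK days 35 and 52 on 5 sites each. MEF2 stood at 1.39% and MEF1 at 0. With MidK2 day 29 in place of day 36 the difference was -16.5 points, under the size limit.

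Around Wdr13 the nearest measured genes were almost all variant in both libraries. Rbm3, a gene of a cold-induced RNA-binding protein, had 4.84% in MidK2 day 36 and 8.16% in MidK1 day 35, and Ebp, a sterol isomerase gene, had 6.18% and 9.63%. Sites named for Gm14820 alone or for Gm14820 and Suv39h1 stood at 0 in both.

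Kdm6a, a histone H3 lysine demethylase gene that escapes X inactivation (X:18162575-18279936, + strand), had 49.3% (41.1 to 57.5) of 138 reads in MidK2 day 36 and 72.4% (61.4 to 81.2) of 76 reads in MidK1 day 35. All 3 sites were lower in MidK2 (difference -23.1 points, exact Fisher test, Benjamini-Hochberg adjusted p = 0.00635). MidK2 stood at 46.2%, 42.3% and 54.5% on days 18, 22 and 29, MidK1 at 56.0% and 56.2% on days 52 and 56, and LowK between 40.6 and 53.4% on its 3 days. MidK1 day 35 was therefore the highest of the 10 reprogrammed libraries, though they rest on unlike sites. MidK2 days 18 and 29 had 1 of the 3 sites, with 65 and 55 reads, and LowK day 52 had 2. With a coverage minimum of 10 reads, which gave 5 sites, the difference was -18.1 points, under the size limit, and against MidK1 day 52 it was -7.34 points (exact Fisher test, Benjamini-Hochberg adjusted p = 0.430).

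The last 2 calls rest on little sequence. Tceal3, of the transcription elongation factor A-like family (X:136590842-136668378, + strand), had 1 coding site, with 45.7% (30.5 to 61.8) of 35 reads in MidK2 day 36 and 83.9% (72.2 to 91.3) of 56 reads in MidK1 day 35 (difference -38.2 points, exact Fisher test, Benjamini-Hochberg adjusted p = 0.00118). The family has close copies on the X chromosome that can share reads, so this value is uncertain. MidK2 had 60%, 81.4% and 56.1% on days 18, 22 and 29, and MidK1 87.2% and 78.1% on days 52 and 56. MEF2 had 0 of 29 reads and MEF1 14.3% of 28 reads.

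Sites named for both Pdzd4, a PDZ-domain protein gene, and Gm14817 (X:73793359-73824969, - strand) had 43.1% (34.2 to 52.5) of 109 reads in MidK2 day 36 and 69.1% (62.7 to 74.8) of 220 reads in MidK1 day 35 (difference -26.0 points, exact Fisher test, Benjamini-Hochberg adjusted p = 7.52e-05). Of the 5 sites, 4 were intronic within 13 bases, with 52.9% in MidK2 and 76.3% in MidK1. A read of 76 bases can cover all 4, so their counts are not independent and the adjusted p is too small. The remaining coding site stood at 4.55% in both, and 5 sites named for Pdzd4 alone stood at 0 in MidK2 and 1.58% in MidK1. Which of the overlapping genes the intronic reads belong to cannot be told here. Against MidK1 day 52, where 1 coding site was shared, the difference was 0.974 points.

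**Figure D3:**
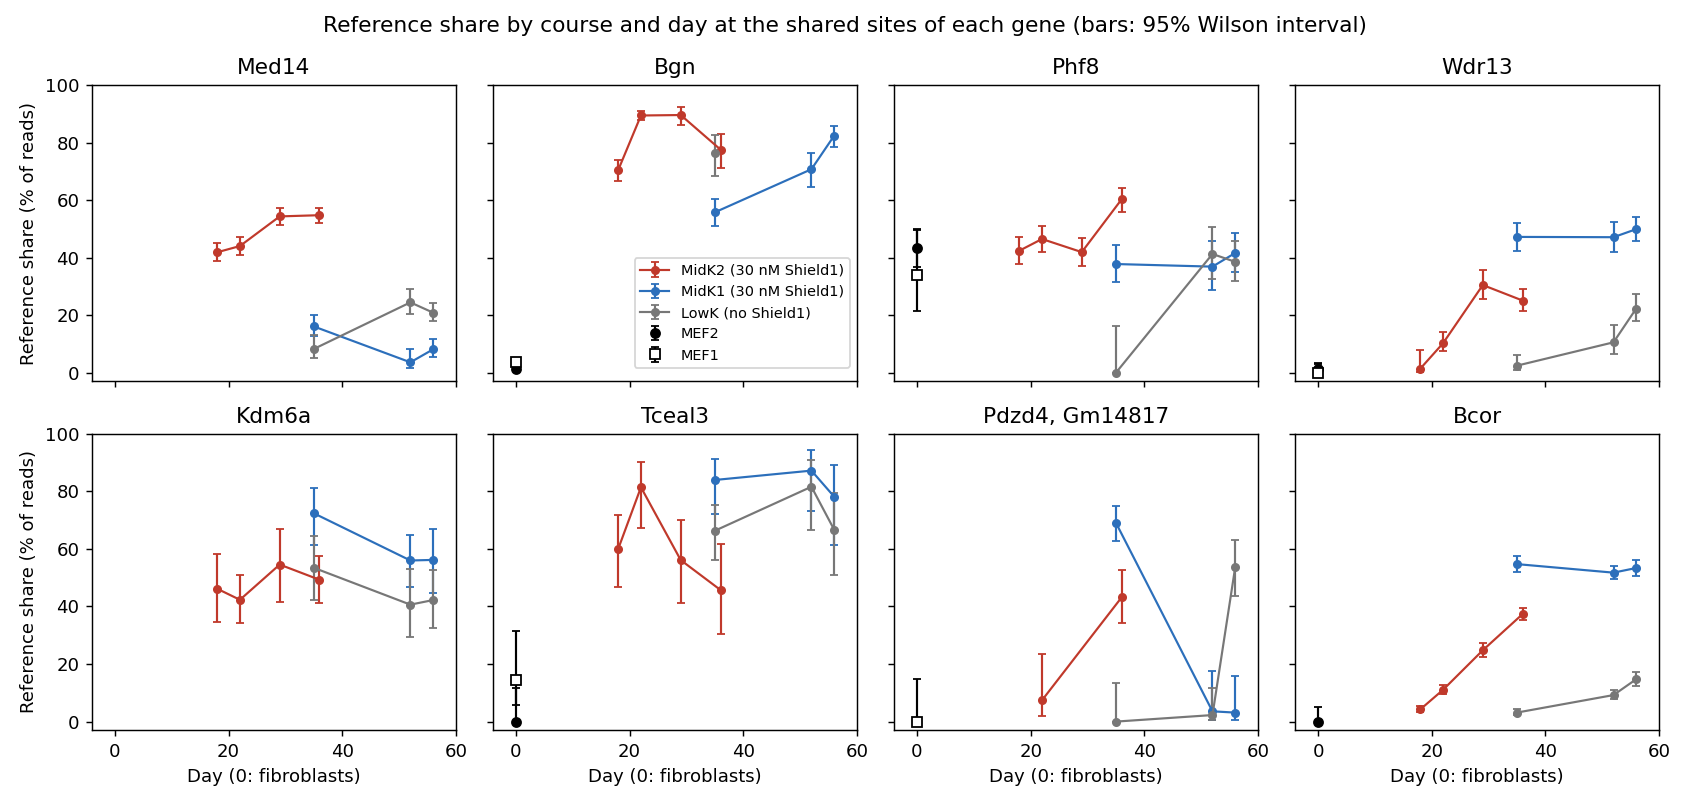
Reference share (% of reads, bars 95% Wilson intervals) by day for the 7 called genes and Bcor at those of their shared sites that passed the limits in each library, so points of 1 line can rest on different sites (most libraries list the coding site alone for Pdzd4 and Gm14817). Lines join libraries of 1 course, and symbols at day 0 are fibroblasts. Med14 is higher on every MidK2 day than in any MidK1 or LowK library, and Bcor in MidK2 runs between 4.24% at day 18 and 37.3% at day 36, below all 3 MidK1 days.

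Below the size limit, the 4 genes nearest to it in each direction with an adjusted p under 0.05 differed by 7.96 to 17.0 points where higher and by 14.5 to 18.9 points where lower. Higher in MidK2 were Tmem29 (30.7% in MidK2 day 36, 13.7% in MidK1 day 35), Sat1 (23.9% and 10.7%), Otud5 (16.1% and 4.08%) and Tmsb4x (28.5% and 20.6%). Sat1 encodes spermidine/spermine acetyltransferase, Otud5 a deubiquitinase, and Tmsb4x the actin-binding thymosin beta 4. Sat1 was higher at 8 of 8 sites, by 13.2 points (exact Fisher test, Benjamini-Hochberg adjusted p = 4.02e-22). Each of these 4 genes was higher in MidK2 at all of its sites.

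Lower in MidK2 were Zdhhc9, Bcor, Rhox5 and Enox2. Zdhhc9, a protein palmitoyltransferase gene, had 34.2% in MidK2 day 36 and 53.1% in MidK1 day 35 at 2 sites. Bcor, a transcriptional corepressor gene, had 37.3% (35.2 to 39.5) of 1901 reads in MidK2 and 54.7% (51.9 to 57.4) of 1254 reads in MidK1, lower at 19 of 19 sites (difference -17.4 points, exact Fisher test, Benjamini-Hochberg adjusted p = 5.89e-20). Its coverage was nearly equal, at 9.51 and 9.66 per 1000 reads. Over the days Bcor had 4.24%, 11%, 24.8% and 37.3% in MidK2 and 54.7%, 51.7% and 53.4% in MidK1.

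Rhox5, a homeobox gene of germline and pluripotent cells, had 0.284% of 705 reads in MidK2 day 36 and 16.3% (10.3 to 24.9) of 98 reads in MidK1 day 35. The difference was -16.0 points (exact Fisher test, Benjamini-Hochberg adjusted p = 2.74e-12). Its variant reads were 3.52 per 1000 in MidK2 and 0.632 in MidK1, and its reference reads 0.0100 and 0.123. Earlier MidK2 days had 4.07%, 15.4% and 10.8%, so day 36 was the lowest of that course. Enox2 had 1.86% in MidK2 day 36 and 16.4% in MidK1 day 35, and MidK1 stood at 38.6% and 30.1% on days 52 and 56. No other MidK2 day of Enox2 passed 4.76%.

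Beyond these genes a small difference ran through most of the chromosome. The median reference share per gene was 2.12% in MidK2 day 36 and 4.62% in MidK1 day 35, and the median difference was -1.58 points (quartiles -4.09 and 0). At any size, 12 genes (4.67%) were higher and 77 (30%) were lower with an adjusted p under 0.05, 89 in all (34.6%), and 104 (40.5%) had an unadjusted p under 0.05 (exact Fisher test). The fibroblast libraries, whose names carry the same numbers, had a median of like size. MEF2 minus MEF1 had a median of -1.77 points over 181 genes, with 1 gene (0.552%) higher and 52 (28.7%) lower at an adjusted p under 0.05. None of the 181 (0%) was called with the size limit, and 62 (34.3%) had an unadjusted p under 0.05 by the exact Fisher test. MidK2 and MEF2 are in tables whose lowest listed variant share was 5%, and MidK1 and MEF1 in tables where it was 10% or just above. The part of the tables in this difference was not tested.

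Each library was therefore also set against the fibroblast library of its number at 820 sites of 148 genes. The median change was 0.745 points for MidK2 day 36 minus MEF2 and 1.23 points for MidK1 day 35 minus MEF1, and the median of the gene-wise differences between them was 0.224 points. Bgn was the 1 gene called (0.676%) by a likelihood ratio test of the interaction with Benjamini-Hochberg adjustment and a 20-point limit. Med14, Kdm6a and the sites of Pdzd4 and Gm14817 were not part of it, since no site passed in both fibroblast libraries. In 97 genes the difference of differences was under 5 points, and 18 had an adjusted p under 0.05 whatever the size. Phf8 at 25.8 points, Tceal3 at -23.9 points and Wdr13 at -19.8 points were not among these 18. The test compares changes in log odds, not in points, and the 2 scales part where a fibroblast share is at or near 0. Uba1 at 4.09 points was among the 18, and Zdhhc9 at -16.3 points was not. Absence from the 18 therefore does not show that changes in points were alike.

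Other pairs of libraries give a scale for 7 calls, though they share a library with the pair studied here. MidK1 day 52 minus MidK1 day 35 had 6 genes called of 244 (2.46%), all higher and 0 lower (0%), and a median difference of 0.167 points. MidK2 day 36 minus MidK2 day 29 had 4 of 303 (1.32%), 1 higher (0.33%) and 3 lower (0.99%), and a median of -2.27 points. MidK1 day 35 minus LowK day 35, which differ in Shield1, had 20 of 248 (8.06%), 19 higher (7.66%) and 1 lower (0.403%), and a median of 2.03 points. With the next library of either course put in, MidK2 day 36 minus MidK1 day 52 had 14 of 266 (5.26%), 1 higher (0.376%) and 13 lower (4.89%). MidK2 day 29 minus MidK1 day 35 had 7 of 249 (2.81%), 3 higher (1.2%) and 4 lower (1.61%), and its median difference was 0.687 points. Med14 was called higher in each of these pairings, at 40.4 and 37.7 points, and Tceal3 was called lower in each, at -41.5 and -27.8 points. The 2 Shield1 courses at days 36 and 35 had fewer called genes between them than MidK1 day 35 had against LowK of the same day. Whether these counts differ beyond error was not tested.

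Genes with a reference share of at least 10% numbered 67 of 257 in MidK2 day 36 (26.1%) and 78 in MidK1 day 35 (30.4%). Of these 62 were the same genes. Those past the limit in MidK2 alone were Acsl4, Elk1, Otud5, Piga and Pqbp1, named after their values were seen. Of these 5, 2 had an adjusted p under 0.05 by the exact Fisher test with Benjamini-Hochberg adjustment, beside 4.67% of all genes higher. The long-chain acyl-CoA synthetase gene Acsl4 had 12.1% in MidK2 and 7.37% in MidK1. The genes on either side of the limit were picked by the same shares that the test compares, which by itself raises such counts. Among the 16 past it in MidK1 alone, 10 had an adjusted p under 0.05, beside 30% of all genes lower. They include Efnb1, the gene of the membrane-bound ligand ephrin B1, with 6.99% in MidK2 and 17.3% in MidK1, Maged1 with 1.62% and 10.7% at 8 sites, and Msn, the gene of the actin-linking protein moesin, with 6.52% and 10.8%. The Efnb1 shares rest on few sites, since the median site stood at 0 in both libraries, the highest at 80% in MidK2 and 86.5% in MidK1, and 3 of 9 sites were lower in MidK2.

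In the 83 genes at 10% or more in either library, 27 were higher in MidK2 and 56 lower, and the median difference was -3.43 points. Shares ranked alike in both libraries, with a Spearman correlation across genes of 0.759 over 257 genes and 0.809 over those 83. Genes are not independent replicates, and both values rest on the same sites. The difference did not track relative coverage across genes, with a Spearman correlation of 0.0475 over 257 genes.

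Of 10 entries of the escape list with shared sites, 8 had at least 10% reference reads in each library, with medians of 43.6% in MidK2 day 36 and 44.9% in MidK1 day 35 and a median difference of 0.574 points. The entry 1810030O07Rik was low in fibroblasts at 1 site, with 9.09% of 22 reads in MEF2 and 4.17% of 24 reads in MEF1. Ddx3x had 36.4% and 37.7% there. Kdm6a was the 1 entry called, beside 2.72% of all genes. It was also the 1 entry lower at an adjusted p under 0.05, beside 30% of all genes, and none was higher, beside 4.67%. Ddx3x had 51.8% (50 to 53.6) of 3016 reads in MidK2 and 51.9% (49.8 to 54.0) of 2207 reads in MidK1, with sites from 42.9 to 60.6% and from 39.4 to 63.3%. The translation initiation factor gene Eif2s3x had 45.7% and 41.1%, Pbdc1 39.9% and 38.6%, and the histone demethylase gene Kdm5c 35.5% and 30.4%. Sites named for Utp14a, a ribosome biogenesis gene, and 9530027J09Rik had 51.6% and 50.4%. None of these 5 differed by Fisher's exact test at an adjusted p of 0.05.

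**Figure D4:**
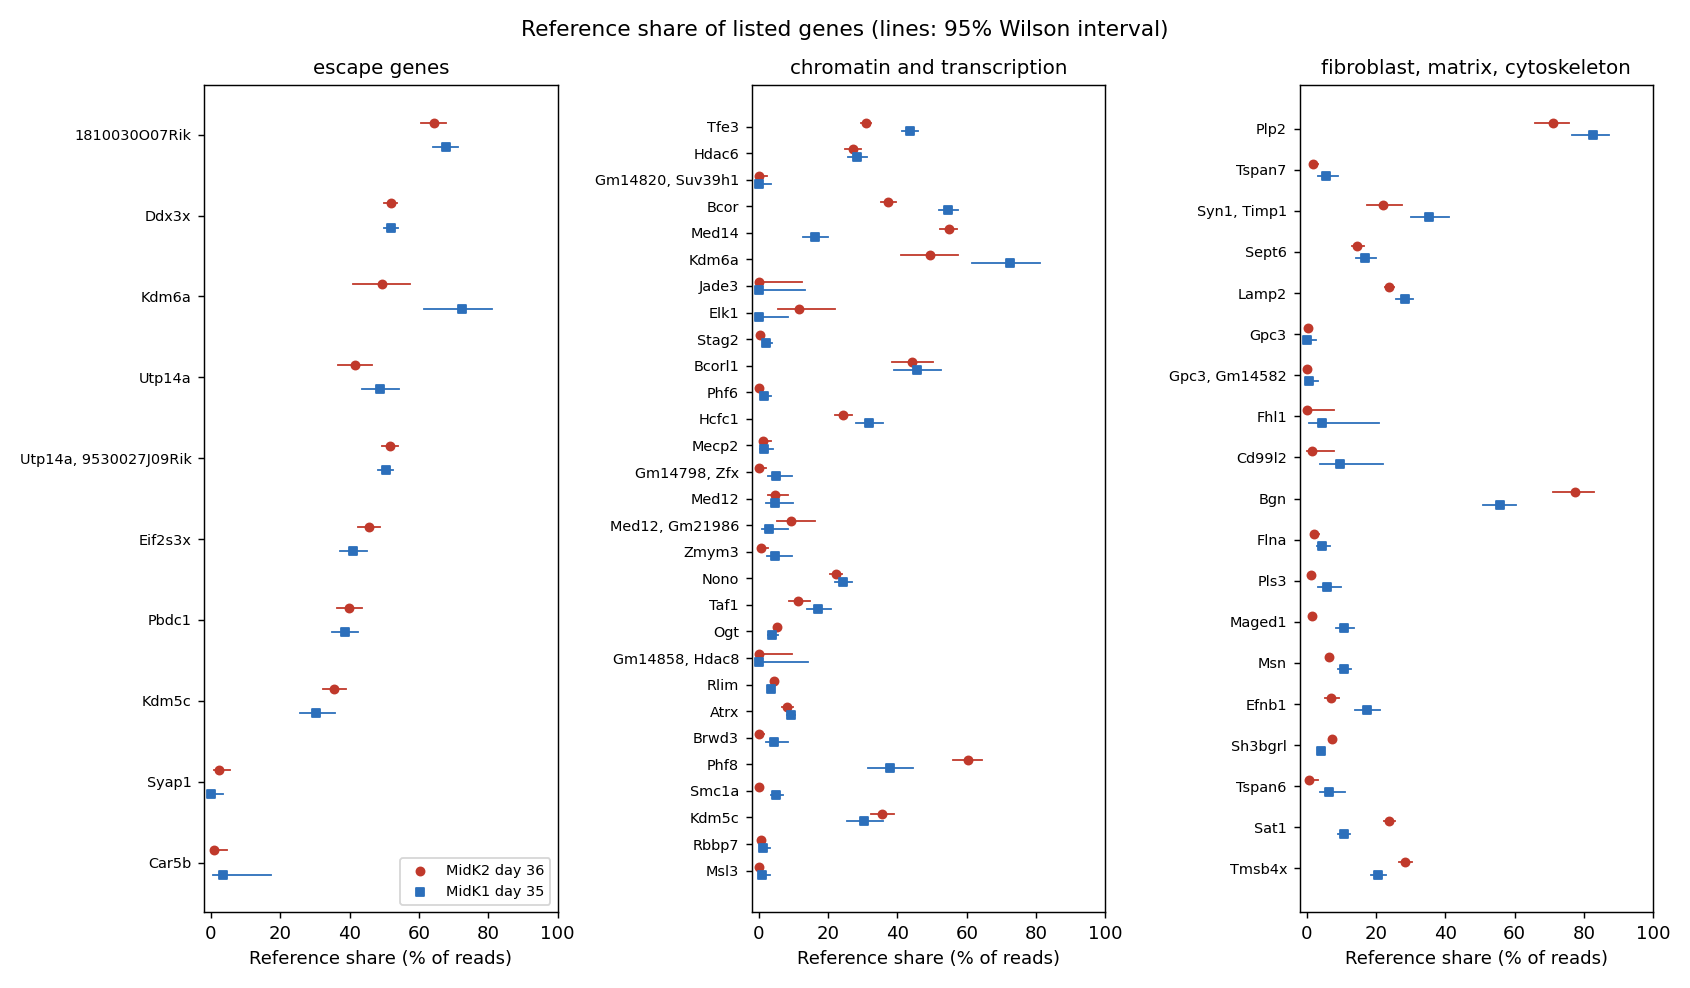
Reference share (horizontal axis, % of reads, lines 95% Wilson intervals) of the measured members of 3 gene lists, in order along the X chromosome from top to bottom, with MidK2 day 36 as circles above MidK1 day 35 as squares. Intervals of the escape genes overlap except for Kdm6a, at 49.3% in MidK2 and 72.4% in MidK1, whereas Med14, Bcor and Tfe3 of the chromatin and transcription list lie apart.

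Of 29 chromatin and transcription entries 3 were called, beside 2.72% of all genes. Med14 and Phf8 were called higher and Kdm6a lower. At any size 2 were higher and 10 lower at an adjusted p under 0.05, beside 12 and 77 of all 257 genes. Tfe3, a transcription factor gene of the pluripotent state, had 30.9% (29.4 to 32.4) of 3619 reads in MidK2 day 36 and 43.7% (41.3 to 46.0) of 1681 reads in MidK1 day 35, lower at 18 of 20 sites (exact Fisher test, Benjamini-Hochberg adjusted p = 1.15e-17). Its reference reads were alike, at 5.59 and 5.65 per 1000 reads, and its variant reads were 12.5 in MidK2 and 7.29 in MidK1. The deacetylase gene Hdac6 had 27.2% and 28.5%, and the corepressor gene Bcorl1 44.2% and 45.7%. Smc1a, the gene of a cohesin subunit, named after its values were seen, had 0.0690% of 1449 reads in MidK2 and 5.04% of 615 reads in MidK1, lower at 12 of 14 sites (exact Fisher test, Benjamini-Hochberg adjusted p = 2.47e-14).

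Of 19 fibroblast, matrix and cytoskeleton entries, Bgn was called higher and none lower, and at any size 4 were higher and 9 lower at an adjusted p under 0.05. Over all 257 genes 3 were called higher and 4 lower, and 12 were higher and 77 lower at an adjusted p under 0.05. The list's medians were 6.52% in MidK2 day 36 and 10.7% in MidK1 day 35. Plp2, a membrane protein gene, had 71.1% and 82.5%, and the sites shared by Syn1 and Timp1, which encodes a metalloproteinase inhibitor, had 22.1% and 35.3%. Of 30 housekeeping entries none was called, beside 2.72% of all genes. At an adjusted p under 0.05, 1 was higher and 12 were lower, beside 4.67% and 30% of all genes, and the medians were 1.77% and 4.24%. Dynlt3, a dynein light chain gene, was lower in MidK2, at 51.8% (49.8 to 53.9) against 62.9% (60.9 to 64.8) in MidK1 (exact Fisher test, Benjamini-Hochberg adjusted p = 2.08e-12). The ubiquitin-activating enzyme gene Uba1 had 22.4% and 21.8%, while MidK1 had 43.8% and 47.1% at days 52 and 56.

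The remaining lists held 1 call. Of 13 Bex, Tceal and Armcx genes, Tceal3 was called lower, beside 1.56% of all genes. At any size 8 were lower and none higher at an adjusted p under 0.05, beside 30% lower and 4.67% higher of all genes. The medians were 0.830% in MidK2 day 36 and 3.68% in MidK1 day 35. Among 11 ubiquitin genes and 6 proton pump and lysosome genes none was called, beside 2.72% of all genes. Both measured pluripotency and germline genes, Tfe3 and Rhox5, were lower at an adjusted p under 0.05 without a call, beside 30% of all genes lower. Of the genes of the X-inactivation centre only Rlim, a ubiquitin ligase gene whose product acts on Xist activation, had shared sites. It had 4.38% in MidK2 and 3.41% in MidK1 over 59 sites (exact Fisher test, Benjamini-Hochberg adjusted p = 0.0723).

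Among the genes with the highest shares in both libraries over at least 2 sites, Plp2 was lower in MidK2 day 36, at 71.1% against 82.5% in MidK1 day 35, and Dynlt3 likewise. 1810030O07Rik had 64.3% in MidK2 and 67.8% in MidK1 (exact Fisher test, Benjamini-Hochberg adjusted p = 0.369), and Utp14a alone 41.5% and 48.8% (adjusted p = 0.124). Among the genes with most reads, Alg13, an enzyme gene of protein glycosylation, was higher in MidK2, at 40.3% against 35.3% in MidK1 over 35 sites (exact Fisher test, Benjamini-Hochberg adjusted p = 0.00202). The ribosomal protein gene Rps4x had 3.25% in MidK2 and 2.40% in MidK1, and Wbp5 6.50% and 14.8%. Gm14681, a pseudogene whose reads can come from its parent gene, had 0.215% and 0.633% and is uncertain.

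Genes at 10% or more were dense at the start of the chromosome in both libraries. In the first 30 Mb, 28 of 50 genes passed 10% in MidK2 day 36 and 28 in MidK1 day 35, with medians of 12.5% and 16.2% and a median difference of -3.44 points. Beyond it 39 and 50 of 207 genes passed, with medians of 1.71% and 4.10% and a median difference of -1.48 points. Of the calls 3 lay in the first 30 Mb (Wdr13, Med14 and Kdm6a) and 4 beyond it.

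**Figure D5:**
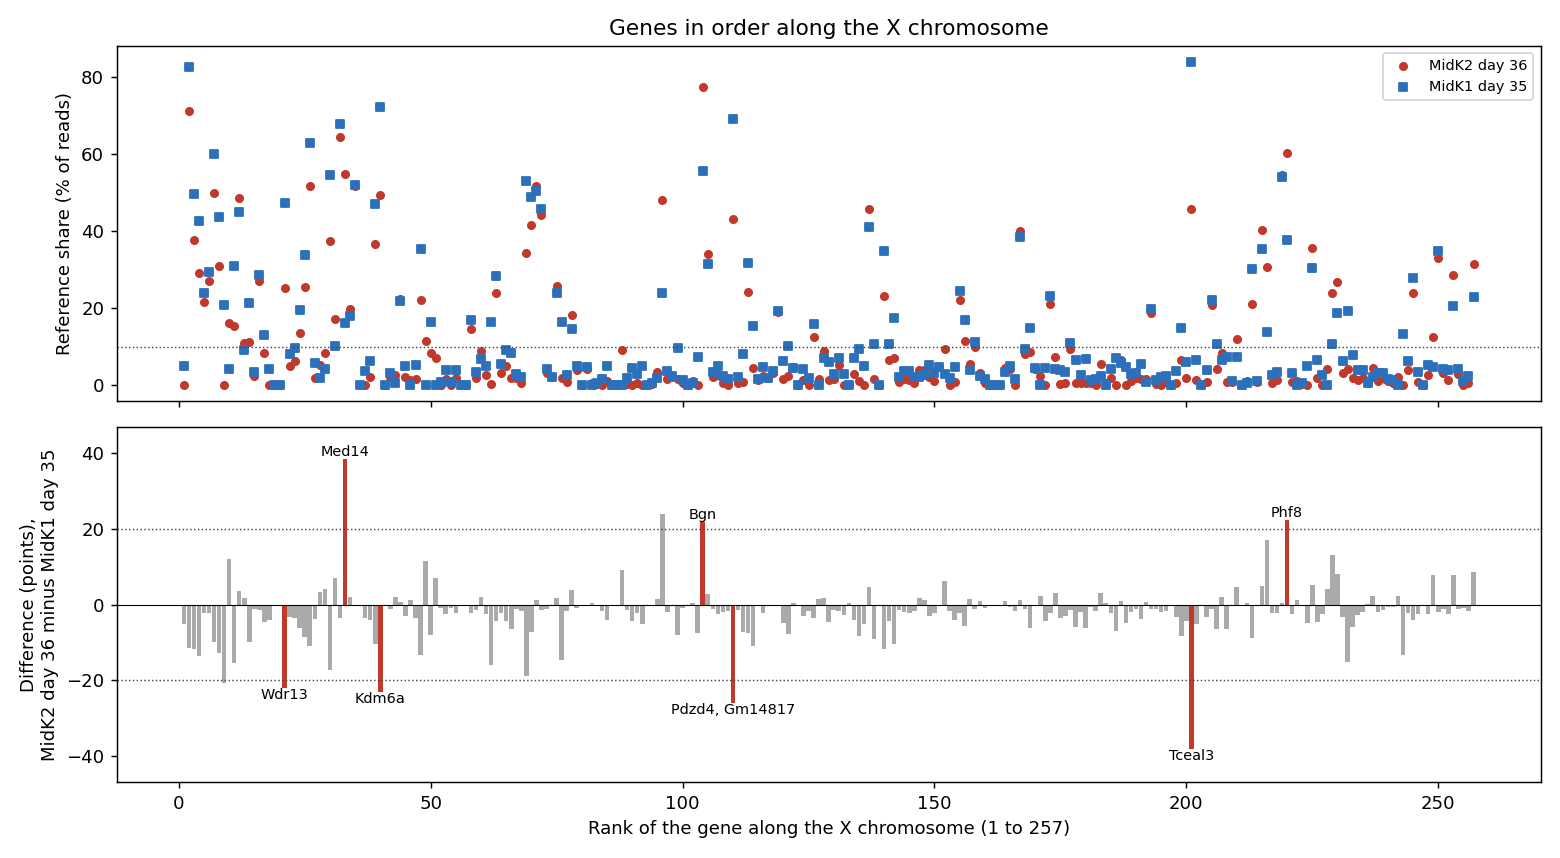
Reference share (% of reads) of 257 genes ranked along the X chromosome in MidK2 day 36 (circles) and MidK1 day 35 (squares), above, and the difference between them in percentage points, MidK2 minus MidK1, below. Red bars are the 7 called genes, no pair of which is adjacent, and 2 grey bars reach 20 points without an adjusted p under 0.05.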

How the data were processed

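Poly(A) RNA of 12 libraries was sequenced as paired reads of 76 bases, and per the labels and the series description CLC Genomics Workbench called the variants (Basic Variant Call). The genome build was mm10 per the submitters' processing notes, while aligner, caller settings and the handling of duplicate reads were not given in the sources used here. The deposited tables list, for variants on the X chromosome, a variant count and a coverage (raw counts, per the file headers), the variant's percent of the coverage, and an average quality score. Deposited percents equalled 100 times count over coverage. Positions without variant reads are not listed, so fully reference sites count as missing.

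Reads of a gene, named as in the tables, were summed over the shared sites. Genes were compared with two-sided Fisher's exact tests and Benjamini-Hochberg adjustment over all genes of a pair, and called at an adjusted p under 0.05 and at least 20 points. Intervals of shares are 95% Wilson intervals. Molecular identifiers were absent, and 1 read covering several sites was counted at each. Tests and intervals therefore cover at most counting error, and are too narrow where sites lie close together. The test step was run on simulated independent reads at each gene's summed coverage. That simulation held no reads counted at several sites and no spread between libraries, so it cannot show how either affects the calls. Site positions were checked against GENCODE M21, where the reference base matched at 1802 exonic sites and differed at 0. Python 3.11.15, pandas 2.3.3, scipy 1.17.1 and statsmodels 0.14.6 were used.

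Named genes are those called, 4 just under the size limit in each direction, the 10 with most reads, the 10 with the highest shares in both libraries over at least 2 sites, list members at 10% or more, and the 2 nearest measured genes on each side of a called gene. The members and the lists were chosen with earlier results of these data known. Alternatives were coverage minimums of 10 and 50, no count or percent limit, a quality score of at least 30, single sites, equal site weights, fibroblast-variant sites, genes with several sites, single gene names, other size limits, a chi-square test and neighbouring days.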

Additional observations from a re-analysis of the deposited data

Results flagged for a closer look

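Bgn, the biglycan gene, changed from fibroblasts by different amounts in the courses. Its reference share was 77.5% in MidK2 day 36 against 1.22% in MEF2, a change of 76.3 points, and 55.8% in MidK1 day 35 against 3.66% in MEF1, a change of 52.1 points. The changes differed by 24.2 points, and the interaction test with Benjamini-Hochberg adjustment over 148 genes called this 1 gene. Its sites took 0.935 of every 1000 shared-site reads in MidK2 day 36 and 3.08 in MidK1 day 35. The part of coverage or of fibroblast RNA in this difference was not tested.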

How the results depend on the processing

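No paired analysis was possible because each course and day is 1 library. Med14 kept its call under all 10 settings of filter, site, weight, size and test that gave it a value, with 35.0 to 47.3 points. Most of these settings left its reads unchanged, at 38.6 points. Med14 had no value over fibroblast-variant sites or with a coverage minimum of 50. Tceal3 has 1 site, so most of these settings could not change it. With a coverage minimum of 50 reads 0 of 123 genes were called, while 42 had an adjusted p and 57 an unadjusted p under 0.05 by Fisher's exact test. Fewer genes were tested there, and Med14 had no site with 50 reads in both. There 39 genes in MidK2 day 36 and 43 in MidK1 day 35 had 10% or more. At the 1 site read most deeply 4 genes were called, 1 of them higher. Of the 7 genes called in the main comparison, Med14 and Tceal3 alone were among them. Bgn, Wdr13, Kdm6a and the Pdzd4 and Gm14817 sites had adjusted p = 0.205, 0.468, 0.725 and 0.476 there (exact Fisher test), with fewer reads per gene. Phf8 was not called there either. Over fibroblast-variant sites (166 genes) 3 were called, 1 higher and 2 lower, with 29 and 33 genes at 10% or more. Size limits of 10 and 30 points gave 24 (6 higher, 18 lower) and 2 (1 higher, 1 lower). MidK1 day 52 in place of day 35 gave 14 (1 higher, 13 lower), and MidK2 day 29 in place of day 36 a median of 0.687 points. The cause was not tested. Phf8 was -0.356 points at that 1 site and -3.57 over fibroblast-variant sites, and the Pdzd4 and Gm14817 sites 0.974 against MidK1 day 52. With 50 reads, MidK1 day 52 minus day 35 had 2 calls, MidK1 day 35 minus LowK 8 and the fibroblast comparison 0 of 57 genes (14 with an unadjusted p under 0.05 in the likelihood ratio test). With 10 reads, MidK2 day 36 minus day 29 had 7 and the fibroblast comparison 3. The median coverage of 39 reads per site in MidK1 day 35 limits what single sites can show.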

Other observations

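Sites on 1 side of the limits add genes that the comparison could not hold. In MidK2 day 36 alone 1630 sites passed, of which 889 were listed in MidK1 day 35 below the limits, and 92 genes had such sites and no shared one. In MidK1 day 35 alone 297 sites passed, 177 of them listed in MidK2 day 36 below the limits, and 21 genes had no shared site. Tsc22d3, the gene of a glucocorticoid-induced leucine zipper protein, had 23.3% reference reads over 14 sites and 527 reads in MidK2 day 36. Gemin8, of the complex that assembles spliceosomal particles, had 44.1% over 8 sites there. In MidK1 day 35, sites named for Reps2 and Gm7331 had 56.5% over 3 sites and 177 reads. These genes were chosen after their values were seen.

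Some genes summed sites of unlike kind. Of 218 genes with at least 2 shared sites, 27 had sites more than 50 points apart in both libraries. Rlim had sites from 0 to 87.1% in each, and Lamp2, a lysosomal membrane gene, from 3.08 to 86.4% in MidK2 day 36 and from 6.45 to 87.5% in MidK1 day 35, with 25 of its 30 sites at least 90% variant in a fibroblast library. Over 986 sites that were at least 90% variant in a fibroblast library, the median reference share was 1.76% in MidK2 day 36 and 4.17% in MidK1 day 35. Over 104 sites that were below that in fibroblasts the medians were 47.7% and 48.2%.

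The median difference between the courses varied with the mean share of a gene, without a steady order. Among 159 genes with a mean share up to 5% it was -1.39 points, among 26 genes between 5 and 10% -3.39 points, among 52 genes between 10 and 40% -2.15 points, among 15 genes between 40 and 60% it was -7.30 points, and among 5 genes above 60% it was -11.4 points. The last 2 groups hold under 20 genes each.

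Gripap1 and Gm14698 differed by at least 20 points without a call, each at 1 site. Gripap1 had 0 of 29 reads in MidK2 day 36 and 20.7% of 29 reads in MidK1 day 35 (exact Fisher test, Benjamini-Hochberg adjusted p = 0.0660). Gm14698 had 48.0% and 24.0% of 25 reads each (adjusted p = 0.268 by the same exact test).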
